A study of Rattus norvegicus with 6 samples.

Results

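Growth hormone acts on the liver largely through the transcription factor STAT5, and 9 genes of that route are described here in rat liver: Ghr, Prlr, Egfr, Stat5b, Socs2, Cish, Bcl6, Igf1 and Igfals. They were chosen by name, and a probe was counted to a gene where its RefSeq accession was that gene's. All 9 genes had probes, 17 in all, out of 15284 genes and 27460 probes that could be named on the array. Each of the 17 was well above background on all 6 arrays and none was saturated, so no member was lost to a filter on dim signal.

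The livers came from male Sprague-Dawley rats of the Crl:CD(SD) stock, 9 weeks old, an outbred stock in which animals differ genetically. One group was killed after isoflurane anaesthesia (n = 3), isoflurane being an inhaled anaesthetic, and the other after anaesthesia with a CO2/O2 gas mixture (n = 3). Every rat in both groups had been given corn oil by the same schedule, 5 mL/kg/day, for 3 days according to the series' design text and for 9 weeks according to the treatment protocol; no untreated or unanaesthetised rats were analysed here. RNA of each liver was labelled with the dye Cy3 and hybridised to 1 array, so each value below is 1 rat.

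In hepatocytes, growth hormone binds its receptor, GHR, which activates the kinase JAK2, and JAK2 phosphorylates STAT5A and STAT5B. Phosphorylated STAT5 dimers enter the nucleus and switch on genes that include Igf1 and Igfals, which encode the circulating growth factor IGF-1 and the subunit that stabilises it in plasma, and Socs2 and Cish, whose proteins damp the receptor signal in a feedback loop. Male rats release growth hormone in pulses and females more continuously, and in rat liver this difference in timing sets the sex-biased expression of many genes, Prlr among them.

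Values are log2 normalised intensities: log2 of the background-corrected spot intensity minus the 75th percentile of that array, so that 0 is the array's 75th percentile and 1 unit is a 2-fold step. They compare rats at 1 probe and do not compare genes with each other. Differences are isoflurane minus CO2/O2, with a standard error (SE), and come from limma fitted over all 34637 tested probes, with adjusted p-values over all of them (Benjamini-Hochberg, threshold 0.05). With 3 rats against 3 there are 20 ways to split the rats, so an exact two-sided permutation test of 1 gene cannot give less than 0.1, and the number of arrays limits the precision throughout. All 6 arrays lay on 1 slide with 1 scan day. Slide row 1 held the 3 CO2/O2 rats and isoflurane rat 1, and row 2 held isoflurane rats 2 and 3, so a difference between groups within a row rests on 1 isoflurane rat. Isoflurane rat 3 had the lowest median correlation with the other arrays, 0.986, against 0.991 for the array with the highest.

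Of the 9 genes, 0 passed adjusted p 0.05 in limma, where adjusted p lay between 0.615 and 0.994, and 1, Socs2, had an unadjusted p under 0.05. Among all 10609 tested genes 0% passed the adjusted threshold, with a smallest adjusted p of 0.156, and 7.58% had an unadjusted p under 0.05. Among all tested probes, named or not, 0.00866% passed. The difference was positive in 4 members and negative in 5, with 52.9% of all tested genes negative, and the members' median difference was -0.0051 against -0.011 over all tested genes. The groups lay at least 2-fold apart in 2 of the 9 genes, Socs2 and Prlr, both with lower means in isoflurane livers, against 1.14% of all tested genes, whereas Igf1, Igfals, Ghr, Stat5b and Egfr had group means within 0.15 of each other on the log2 scale.

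**Figure D1:**
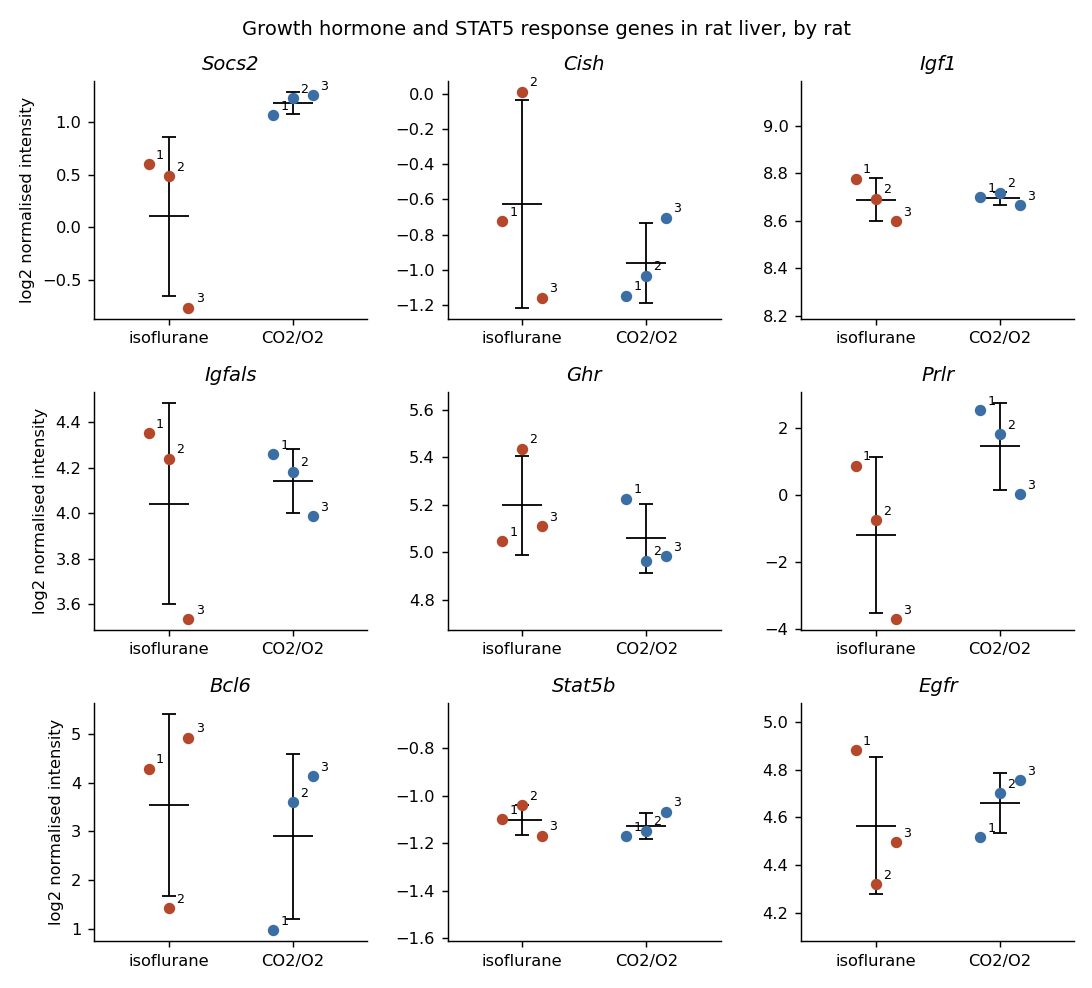
Log2 normalised intensity (vertical axis, separate for each panel) of the probe that represents each of the 9 genes, with isoflurane rats in red and CO2/O2 rats in blue, numbered by replicate; the long line is the group mean and the bar is ± 1 SD (n = 3 each). Socs2 is the panel in which the groups do not overlap, and Bcl6 has 1 low rat in each group.

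The sequences that bear most directly on these genes are the promoters that hold the STAT5 motif. STAT5 dimers are known to bind the palindrome TTCNNNGAA, which reads the same on both strands. It was searched in the promoters listed by RefSeq (assembly GRCr8), from 250 bases before to 50 bases after each gene's start; overlapping matches were counted. Promoters were listed for 8 of the 9 genes, Socs2 being the exception, and 2 of the 8 had a match: Cish and Prlr. Of all 33469 rat promoters, 8.87% held at least 1 match. Cish, a feedback gene and a classical STAT5 target, had 4 matches in its promoter, as many as any promoter searched, and only 2 promoters in all reached 4. They lie 241, 230, 136 and 119 bases before the start and are in capitals in the sequence below, which is chr8:116850719-116851018 on the plus strand. Prlr was listed with 2 starts, and the match, TTCTAGGAA, lies 176 bases before the downstream one, at chr2:60909409-60909708 on the plus strand. A match is a run of letters, not a measured binding site.
Cish promoter: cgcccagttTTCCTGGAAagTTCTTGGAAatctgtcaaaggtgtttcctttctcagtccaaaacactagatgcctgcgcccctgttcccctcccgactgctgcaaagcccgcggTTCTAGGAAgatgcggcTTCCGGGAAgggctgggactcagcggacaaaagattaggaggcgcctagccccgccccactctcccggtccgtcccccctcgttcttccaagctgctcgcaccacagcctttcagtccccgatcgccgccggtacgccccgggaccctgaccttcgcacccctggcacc
Prlr downstream promoter: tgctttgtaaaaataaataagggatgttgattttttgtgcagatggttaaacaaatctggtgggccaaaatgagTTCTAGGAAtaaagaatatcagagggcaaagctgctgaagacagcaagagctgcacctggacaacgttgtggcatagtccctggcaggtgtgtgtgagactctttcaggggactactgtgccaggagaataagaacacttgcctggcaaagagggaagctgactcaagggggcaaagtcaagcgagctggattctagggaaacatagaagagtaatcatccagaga

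Socs2, which encodes a suppressor of cytokine signalling that binds the growth hormone receptor and whose loss causes gigantism in mice, was the only member whose groups did not overlap. Its single probe gave 0.60, 0.48 and -0.76 in the 3 isoflurane livers, against 1.06, 1.23 and 1.25 in the 3 CO2/O2 livers. The CO2/O2 rats lay close together, and isoflurane rat 3 lay well below the other isoflurane rats. The means were 0.11 ± 0.75 in isoflurane livers and 1.18 ± 0.10 in CO2/O2 livers (SD, n = 3 each). The difference was -1.08 ± 0.36 (SE; 95% interval -1.94 to -0.21), which is 2.11-fold lower in isoflurane livers, with an adjusted p of 0.615 in limma. The exact permutation p was 0.1, the smallest that 3 against 3 allows. Among all tested genes, 14.2% had groups that did not overlap, so 1 of 9 members is below the background share. Without isoflurane rat 3 the difference was -0.64 ± 0.10 (adjusted p 0.371 in limma), and within slide row 1, from isoflurane rat 1 alone, it was -0.58 ± 0.46.

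Cish, the second feedback gene, encodes a protein of the same family that is induced by STAT5 and binds the activated receptor. Its brighter probe, which represents the gene, gave -0.72, 0.01 and -1.16 in isoflurane livers, against -1.15, -1.03 and -0.70 in CO2/O2 livers. The isoflurane rats held both the highest and the lowest value. The difference was 0.34 ± 0.30 (SE; 95% interval -0.39 to 1.07), with an adjusted p of 0.825 in limma. The dimmer probe gave -2.13, 0.77 and -2.48 in isoflurane livers, against -0.83, -1.87 and -2.18 in CO2/O2 livers. Both probes put isoflurane rat 2 highest and isoflurane rat 3 lowest, but they ordered the CO2/O2 rats in opposite ways and differed in range, 3.24 log2 units at the dimmer probe and 1.17 at the brighter one. The dimmer probe's difference was 0.35 ± 0.89 (adjusted p 0.952 in limma). Which of the probes follows the Cish transcript was not tested.

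Bcl6 encodes a transcriptional repressor that, in mouse liver, occupies many of the same sites as STAT5 and is itself repressed through STAT5. Its brighter probe gave 4.29, 1.42 and 4.92 in isoflurane livers, against 0.97, 3.61 and 4.13 in CO2/O2 livers. One rat in each group was low, isoflurane rat 2 and CO2/O2 rat 1, and the other 4 rats lay between 3.61 and 4.92. The highest rat was 15.5-fold above the lowest, a range of 3.95 log2 units, so the spread within each group was far larger than the difference between group means. The means were 3.54 ± 1.87 in isoflurane livers and 2.90 ± 1.69 in CO2/O2 livers (SD, n = 3 each), a difference of 0.64 ± 1.17 (SE; 95% interval -2.18 to 3.47; adjusted p 0.927 in limma). The sign turned without CO2/O2 rat 1, to -0.32, and without isoflurane rat 3, to -0.05, and within slide row 1 the difference was 1.39 ± 1.74. The dimmer Bcl6 probe followed the same course, with a Pearson r of 0.997 between the probes over the 6 rats and a difference of 0.67, so the low rats were low at both probes.

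Whether the feedback genes moved together was examined over the 6 rats, for all 36 pairs of the 9 genes, with exact permutation p-values over the 720 orders of the rats and Benjamini-Hochberg adjustment over the pairs. No pair passed adjusted p 0.05, with a smallest adjusted p of 0.1 for Pearson's r and 0.6 for Spearman's rho, and 4 pairs had an unadjusted p under 0.05 for Pearson's r. Socs2 and Cish had a Pearson r of 0.09 (exact permutation p 0.814, adjusted 0.894) and a rho of 0.26 (exact permutation p 0.658, adjusted 0.948). Both genes were lowest in isoflurane rat 3, and among the other rats Cish was highest in isoflurane rat 2, where Socs2 was lowest. Without isoflurane rat 3 the r was -0.72, without the 2 rats farthest from the Socs2 median it was -0.85 over 4 rats, and with each group's mean taken out it was 0.72 over all 6. With the other Cish probe, a choice made after the data were seen, it was 0.15. Bcl6 split the rats into a low pair and a high 4, so no pooled r is given for its 8 pairs. They were among the 36 pairs tested and adjusted. At the representing probes none of them had an exact permutation p under 0.05 for Pearson's r. With the other Cish probe, Cish and Bcl6 ran in opposite directions, with an exact permutation p of 0.0333 for Pearson's r (adjusted 0.24).

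**Figure D2:**
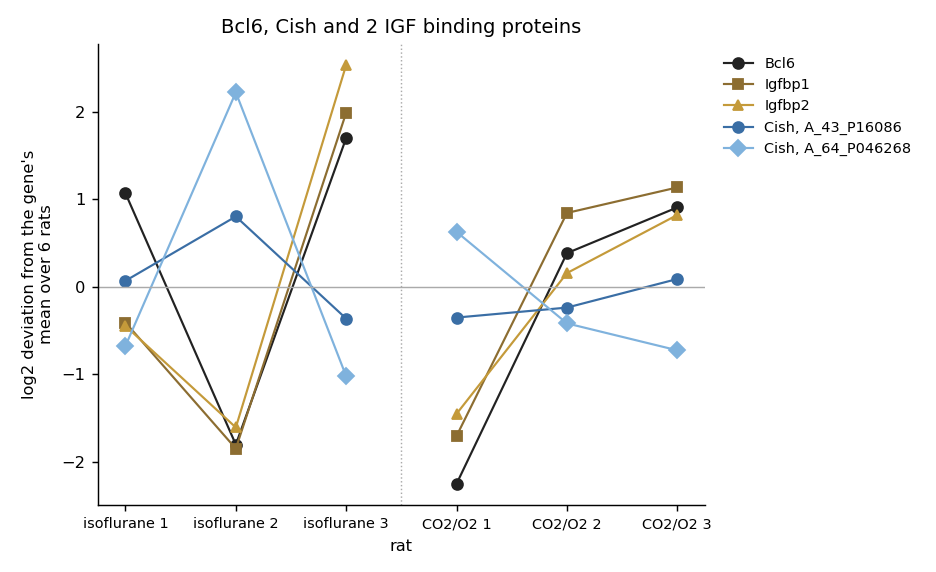
Log2 deviation from each gene's mean over the 6 rats (vertical axis) for Bcl6, both Cish probes and the IGF binding proteins Igfbp1 and Igfbp2, by rat, isoflurane left and CO2/O2 right; lines join values only to help the eye. Bcl6, Igfbp1 and Igfbp2 are lowest in isoflurane rat 2 and CO2/O2 rat 1, where the dimmer Cish probe has its 2 highest values.

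Among the receptors, Prlr, the prolactin receptor, a relative of GHR that also signals through JAK2 and STAT5, varied most. Its single probe gave 0.86, -0.75 and -3.70 in isoflurane livers, against 2.52, 1.79 and 0.01 in CO2/O2 livers. The groups overlapped, because isoflurane rat 1 lay above CO2/O2 rat 3, and isoflurane rat 3 was 74.5-fold below the highest rat. That low value lay near intensities at which some other probes were not well above background, so the fold is uncertain. With normexp background correction the group difference was -2.21 ± 0.94 (SE). The means were -1.20 ± 2.31 in isoflurane livers and 1.44 ± 1.29 in CO2/O2 livers (SD, n = 3 each). The difference was -2.64 ± 1.23 (SE; 95% interval -5.61 to 0.33), or 6.22-fold lower in isoflurane livers, with an unadjusted p of 0.073 and an adjusted p of 0.683 in limma. Leaving out each rat in turn gave -3.67 to -1.39, with -1.39 reached without isoflurane rat 3, and within slide row 1 the difference was -0.58 ± 1.40. Prlr and Socs2 ran roughly in parallel across the rats, with a Pearson r of 0.88 (exact permutation p 0.0319, adjusted 0.30) and a rho of 0.60 (exact permutation p 0.242, adjusted 0.948). Without the 2 rats farthest from the Socs2 median, the r was 0.86 over 4 rats. Those were isoflurane rat 3 and CO2/O2 rat 3, the latter highest in Socs2 but below isoflurane rat 1 in Prlr. With each group's mean taken out the r was 0.78 over all 6 rats.

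Ghr, the growth hormone receptor itself, had 4 probes. The brightest gave 5.05, 5.44 and 5.11 in isoflurane livers, against 5.23, 4.96 and 4.98 in CO2/O2 livers. Its difference was 0.14 ± 0.14 (SE; 95% interval -0.19 to 0.47; adjusted p 0.842 in limma). The 4 probes, which all list the same RefSeq transcript, fell into 2 pairs. Within a pair the Pearson r over the 6 rats was 0.90 or 0.94, and across pairs it was 0.24 to 0.33. The brightest and the dimmest probe had differences of 0.14 and 0.11, and the other pair had -0.08 and -0.12. Neither pair passed, and the sign of the Ghr difference therefore depends on the probe.

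Egfr encodes the epidermal growth factor receptor, which in liver depends on growth hormone for its level in rodents. It gave 4.88, 4.32 and 4.50 in isoflurane livers, against 4.52, 4.70 and 4.76 in CO2/O2 livers. The isoflurane rats again held both the highest and the lowest value. The difference was -0.09 ± 0.16 (SE; 95% interval -0.49 to 0.30; adjusted p 0.923 in limma), and the second probe, which followed the first with r 0.987, gave -0.20. At their brightest probes Ghr and Egfr ran in opposite directions over the rats, with a Pearson r of -0.85 (exact permutation p 0.0333, adjusted 0.30) and a rho of -0.71 (exact permutation p 0.136, adjusted 0.948). This was the only negative r among the 4 pairs with an unadjusted p under 0.05, and without the 2 rats farthest from the Ghr median it was -0.50 over 4 rats. The Ghr probes with negative differences followed the brightest with an r of only 0.24 and 0.28, and their relation to Egfr was not tested.

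Stat5b, the main STAT5 form in liver, gave -1.10, -1.04 and -1.17 in isoflurane livers, against -1.17, -1.15 and -1.07 in CO2/O2 livers. All 6 rats lay within 0.13 log2 units. The difference was 0.03 ± 0.08 (SE; 95% interval -0.17 to 0.22; adjusted p 0.963 in limma). STAT5 activity is set by phosphorylation, which the arrays do not measure. Cish at its representing probe and Stat5b were the pair with the smallest p, with a Pearson r of 0.92 (exact permutation p 0.00278, adjusted 0.1) and a rho of 0.94 (exact permutation p 0.0167, adjusted 0.6). Without the 2 rats farthest from the Cish median it was 0.97 over 4 rats. At the other Cish probe the r with Stat5b was 0.45 (exact permutation p 0.411, adjusted 0.848) and the rho 0.20 (exact permutation p 0.714, adjusted 0.918), so the close relation was seen at 1 of the 2 probes. By SD over the 6 rats, Stat5b varied more than only 4.07% of tested genes.

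Igf1, the hormone through which growth hormone promotes growth and a main STAT5 target in liver, gave 8.78, 8.69 and 8.60 in isoflurane livers, against 8.70, 8.72 and 8.67 in CO2/O2 livers. The difference was -0.01 ± 0.08 (SE; 95% interval -0.21 to 0.20; adjusted p 0.994 in limma). The other 2 Igf1 probes, which list a second RefSeq transcript, gave -0.11 ± 0.14 and -0.16 ± 0.19, and in both isoflurane rat 3 was lowest, at 8.12 and 5.95. They moved with each other (r 0.978) more closely than with the brightest probe (r 0.728 and 0.682). Igfals, the acid-labile subunit, is made by hepatocytes under growth hormone and holds IGF-1 in a long-lived plasma complex. It gave 4.35, 4.24 and 3.53 in isoflurane livers, against 4.26, 4.18 and 3.99 in CO2/O2 livers, so that isoflurane rat 3 was again lowest and the groups overlapped. Its difference was -0.10 ± 0.23 (SE; 95% interval -0.65 to 0.45; adjusted p 0.943 in limma), and without isoflurane rat 3 it was 0.15. Igf1 and Igfals had a Pearson r of 0.92 (exact permutation p 0.00694, adjusted 0.125) and a rho of 0.83 (exact permutation p 0.0583, adjusted 0.948), and without the 2 rats farthest from the Igf1 median the r was 0.73 over 4 rats.

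**Figure D3:**
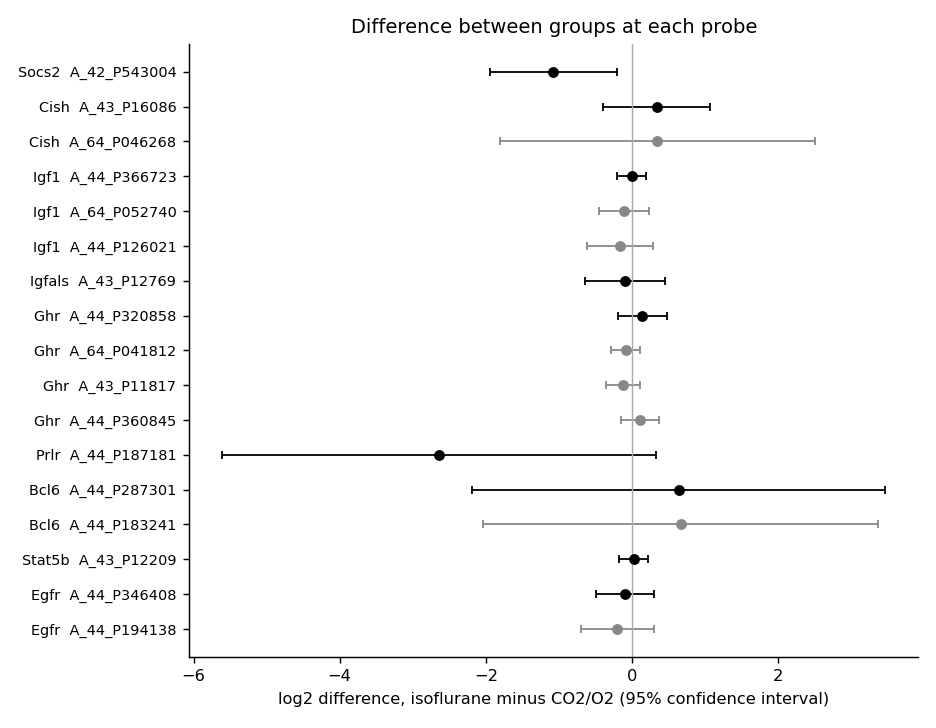
Difference of each of the 17 probes, isoflurane minus CO2/O2 (horizontal axis, log2 units), with its 95% confidence interval from limma; black points are the probes that represent a gene and grey points are the gene's other probes. The intervals of Prlr and both Bcl6 probes span more than 5 log2 units, and those of Igf1, Stat5b and Ghr less than 1.

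The members ranged from among the steadiest to among the most variable genes on the array. By SD over all 6 rats, Prlr ranked above 99.9% of the 10609 tested genes, Bcl6 above 99.7%, Socs2 above 97.5% and Cish above 91.5%. Igfals, Egfr and Ghr stood at 80.8%, 65.6% and 58.3%, and Igf1 and Stat5b at 5.52% and 4.07%. These ranks, and the comparison of SDs that follows, use the probe that represents each gene. Igf1 had an SD of 0.06 at that probe but 0.18 and 0.25 at its other probes, against a median of 0.15 over all tested genes. Cish had 0.44 at its representing probe and 1.23 at the other. The SD was larger among isoflurane than among CO2/O2 rats in 9 of 9 members, against 60.9% of all tested genes. That comparison shares its rats across genes and was not tested. It also depends on the probe for Ghr. The other Ghr probes had SDs of 0.05, 0.07 and 0.09 among isoflurane rats, against 0.07, 0.11 and 0.14 among CO2/O2 rats. Isoflurane rat 3 held the lowest value of 5 members, Socs2, Cish, Igf1, Igfals and Prlr, and the highest of Bcl6, and among all tested genes it held the lowest value in 22.8%.

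**Figure D4:**
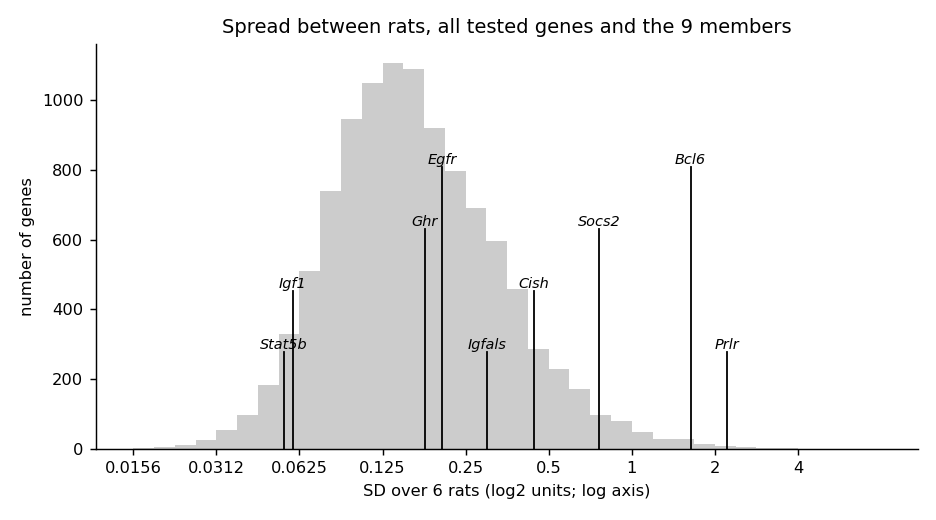
Number of tested genes (vertical axis) by SD over the 6 rats (horizontal axis, log2 units on a log scale), with the 9 genes marked by lines whose heights carry no value. Each gene is shown at the probe that represents it. Prlr, Bcl6 and Socs2 lie in the right tail, above the 95th percentile, and Stat5b and Igf1 in the left tail.

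Genes around this route were taken from lists chosen with earlier results of these data known, and 0 genes of any list passed adjusted p 0.05. In the receptor and kinase list, 11 of 12 genes were tested, 4 with a positive and 7 with a negative difference, and the median difference was -0.11. Nr3c1, the glucocorticoid receptor and a partner of STAT5 on DNA, had -0.25 ± 0.11, and the receptor's own kinase Jak2 had -0.18 ± 0.09 (differences ± SE, n = 3 each). Among negative regulators, 10 of 14 were tested, with 1 lower and 0 higher at an unadjusted p under 0.05, 5 positive and 5 negative and a median of 0.04. Ptpn1, the phosphatase PTP1B that removes phosphate from JAK2, had -0.20 ± 0.08, Socs4, of the same family as Socs2, had 0.24 ± 0.10, and the phosphatase gene Ptpn11 had 0.12 ± 0.08. The other Ptpn11 probes gave 0.05, 0.09 and -0.12. In the EGF receptor family, 3 of 5 were tested, with 1 lower and 0 higher, 2 positive and 1 negative and a median of 0.22. Errfi1, a feedback inhibitor of EGFR, had -0.23 ± 0.08, and the receptor genes Erbb2 and Erbb3 had 0.32 ± 0.15 and 0.22 ± 0.12. A dimmer Erbb2 probe, well above background on the CO2/O2 arrays only, had the opposite sign, -0.25 ± 0.20.

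In the IGF system, 8 of 12 genes were tested, with 1 lower and 0 higher at an unadjusted p under 0.05, 5 positive and 3 negative and a median of 0.01. Igfbp3, the main carrier of IGF-1 in the complex that Igfals stabilises, gave 5.43, 5.13 and 5.17 in isoflurane livers, against 5.74, 5.93 and 5.61 in CO2/O2 livers. At this probe, its brightest, the groups did not overlap, as in 14.2% of all tested genes. The difference there was -0.52 ± 0.13 (unadjusted p 0.00628, adjusted p 0.56 in limma). The other Igfbp3 probes gave -0.41 and -0.36, and at these the groups overlapped. In liver Igfbp3 is made mainly by cells other than hepatocytes, and in bulk tissue fewer cells of a type and less RNA per cell cannot be told apart. Igfbp4 had 0.14 ± 0.09 and Igf2r, the receptor that clears IGF-2, had -0.39 ± 0.25. Igfbp1 and Igfbp2, binding proteins that insulin holds down in liver, were taken up after their values were seen. Igfbp1 gave 2.83, 1.39 and 5.23 in isoflurane livers, against 1.54, 4.09 and 4.38 in CO2/O2 livers, and Igfbp2 gave 0.85, -0.31 and 3.83 in isoflurane livers, against -0.16, 1.45 and 2.12 in CO2/O2 livers. Both were lowest in isoflurane rat 2 and CO2/O2 rat 1 and highest in isoflurane rat 3, as Bcl6 was, with differences of -0.18 ± 1.15 and 0.32 ± 1.13.

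In the list of liver genes patterned by growth hormone timing, 16 of 17 were tested, with 1 higher and 0 lower at an unadjusted p under 0.05, 9 positive and 7 negative and a median of 0.03. Cyp3a18 and Cyp2c11, cytochromes P450 of the male pattern, had differences of 0.76 ± 0.28 and 0.64 ± 0.31, and both belong to families of near-identical genes whose probes can cross-react. Onecut1, a liver transcription factor that is more abundant in females, gave 3.00, 3.81 and 1.64 in isoflurane livers, against 5.32, 4.004 and 3.39 in CO2/O2 livers. Its difference was -1.42 ± 0.68 (SE; adjusted p 0.691 in limma). Srd5a1, a steroid reductase, and A1bg, a plasma protein, are also of the female pattern in rats and, with the female-pattern cytochromes P450 Cyp2c12 and Cyp2c7, were taken up after their values were seen. Srd5a1 gave 4.74, 4.34 and 3.03 in isoflurane livers, against 5.31, 4.58 and 4.18 in CO2/O2 livers. A1bg, which was above background on 5 of 6 arrays, gave -1.34, -2.77 and -4.81 in isoflurane livers, against 1.25, -1.91 and -2.22 in CO2/O2 livers. Onecut1, Srd5a1 and A1bg, like Prlr, were highest in CO2/O2 rat 1 and lowest in isoflurane rat 3, and in all 3 the groups overlapped. Cyp2c12, the best known female-pattern gene of the list, took another course, with 6.10, 3.07 and 4.15 in isoflurane livers, against 3.99, 4.58 and 5.53 in CO2/O2 livers. It was highest in isoflurane rat 1 and lowest in isoflurane rat 2, with a difference of -0.26 ± 0.80. Cyp2c7 gave 8.51, 8.53 and 8.31 in isoflurane livers, against 8.67, 8.63 and 8.43 in CO2/O2 livers. Like Prlr, Cyp2c7 was highest in CO2/O2 rat 1 and lowest in isoflurane rat 3, and so it was at each of its other probes. Cyp2c12 and Cyp2c7 have near-identical relatives to which a probe can cross-react. Among the female-pattern genes named here, Cyp2c12 thus took a course apart from the others.

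**Figure D5:**
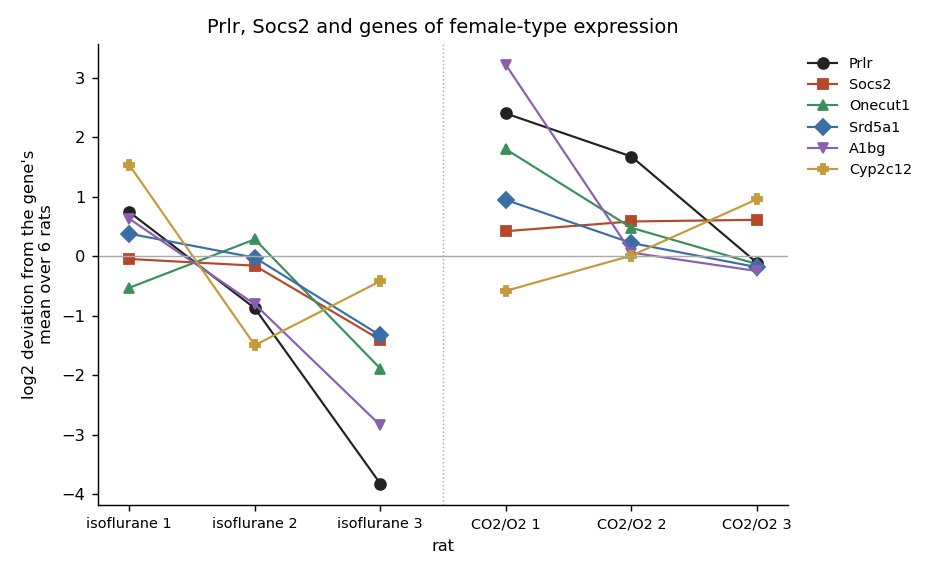
Log2 deviation from each gene's mean over the 6 rats (vertical axis) for Prlr, Socs2, Onecut1, Srd5a1, A1bg and Cyp2c12, by rat, isoflurane left and CO2/O2 right; lines join values only to help the eye. Cyp2c12 is highest in isoflurane rat 1 and lowest in isoflurane rat 2; the other 5 genes are lowest in isoflurane rat 3, and of those all but Socs2 are highest in CO2/O2 rat 1.

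Markers of the liver's cell types were set beside these values as each list's mean deviation from its genes' means over the 6 rats. Hepatocyte markers, of which 10 of 10 were tested, lay between -0.16 and 0.09 in isoflurane livers and between -0.11 and 0.10 in CO2/O2 livers. Kupffer cell markers lay between -0.22 and -0.10 in isoflurane livers and between -0.04 and 0.36 in CO2/O2 livers, with 10 of 10 negative differences, 6 of them at an unadjusted p under 0.05 in limma and 6 with groups that did not overlap. Lymphocyte markers (7 of 11 tested, with Cd3e and Cd2 too dim to test) lay between -0.48 and 0.02 in isoflurane livers and between 0.04 and 0.27 in CO2/O2 livers, with 7 of 7 negative differences and 3 at an unadjusted p under 0.05. Bile duct markers lay between -0.25 and -0.14 in isoflurane livers and between 0.03 and 0.32 in CO2/O2 livers, with 4 of 5 negative and 1 at an unadjusted p under 0.05. Erythroid markers lay between -0.65 and 0.27 in isoflurane livers and between 0.02 and 0.39 in CO2/O2 livers, with 4 of 5 negative and 2 at an unadjusted p under 0.05. Endothelial markers lay between -0.13 and 0.12 in isoflurane livers and between -0.03 and 0.08 in CO2/O2 livers, and stellate cell markers between -0.14 and 0.13 in isoflurane livers and between -0.18 and 0.14 in CO2/O2 livers. The groups did not overlap in 3 lymphocyte, 2 erythroid, 1 bile duct, 1 endothelial, 1 hepatocyte and 0 stellate cell markers. Among all tested genes, 52.9% had a negative difference, 7.58% an unadjusted p under 0.05 in limma and 14.2% groups that did not overlap. No marker passed adjusted p 0.05. The lowest Kupffer cell, lymphocyte, bile duct and erythroid means were all those of isoflurane rat 3, which was also the lowest in Socs2 and Prlr. For Kupffer cells this was nearly a tie, with -0.222 in isoflurane rat 3 and -0.213 in isoflurane rat 2. Of the tested bile duct markers, Spp1 alone was lowest in isoflurane rat 3, at -3.77. Cftr, at -3.10, was higher there than in the other isoflurane rats. The part of these cell types in the differences of Socs2, Prlr and Igfbp3 was not tested.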

How the data were processed

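Liver RNA of 6 rats was hybridised to 1-colour arrays, and images were read with Agilent Feature Extraction 10.7, per the submitters' processing notes. The deposited intensity values are background-corrected on a linear scale and not scaled between arrays, per the file headers. The deposited value table holds a ratio: set against the scanner output, a column equalled the array's processed intensities over 1 divisor that lay near its 75th percentile, with no centring; the choice of divisor is not stated in the labels. Its column medians were 0.0917, 0.0901 and 0.0905 for isoflurane and 0.0864, 0.0882 and 0.0868 for CO2/O2.

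Log2 intensities were reduced by each array's 75th percentile (912 to 998 intensity units) over 61657 non-control probes. The 177 spots marked as outliers were left out, and 0 were saturated. Between 53.4% and 60.6% of probes on isoflurane arrays and 56.9% and 62.3% on CO2/O2 arrays were well above background. A probe was tested where it was so on all 3 arrays of at least 1 group, and a gene took its tested probe with the highest mean. Accessions matched 1 RefSeq gene (GRCr8, names and promoters only) for 27460 probes, several for 0 and none for 34197; the array headers name another build, so no probe positions are given. Fits used limma 3.58.1 (lmFit, eBayes) in R 4.3.3, and other steps Python 3.11.15; the fit was tested on simulated data.

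The members and all lists were chosen with earlier results of these data known. All 9 members were described with every probe, and from each pathway list the 3 genes with the largest moderated t, since none passed, except 1 gene that is not reported here; marker lists are given as counts and ranges. Alternatives were normexp background correction (offset 50, on the median signal, in the absence of a mean-signal column), median centring, quantile normalization, the deposited value table, other filters on dim probes, outlier-marked spots kept, trend and robust eBayes, a block for replicate number or for slide row, averaging a gene's probes, and leaving out each array.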

Additional observations from a re-analysis of the deposited data

How the results depend on the processing

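No member passed adjusted p 0.05 in limma under any of the 17 alternatives run for each (18 for Cish), with adjusted p from 0.371 to 1.00; at an unadjusted p under 0.05, 1 member, Socs2, passed. Socs2, Prlr and Cish kept their sign under all of them. Leaving out each rat in turn gave -1.32 to -0.64 for Socs2, -3.67 to -1.39 for Prlr, 0.02 to 0.60 for Cish, -0.32 to 1.70 for Bcl6, -0.25 to 0.0301 for Egfr, 0.02 to 0.22 for Ghr, -0.0489 to 0.0409 for Igf1, -0.26 to 0.15 for Igfals and -0.0041 to 0.0591 for Stat5b. Signs turned as follows, and the cause was not tested: Bcl6 was -0.05 without isoflurane rat 3 and -0.32 without CO2/O2 rat 1, Egfr was 0.0301 without isoflurane rat 2, Igf1 was 0.0409 without isoflurane rat 3 and 0.0065 without CO2/O2 rat 2, Igfals was 0.15 without isoflurane rat 3, and Stat5b was -0.0041 without isoflurane rat 2 and -0.0328 under median centring, which moved the median of all tested probes to -0.06. With the slide row as a block, which leaves isoflurane rat 1 against the CO2/O2 rats, Egfr was 0.22, Ghr -0.0106, Igf1 0.0826 and Igfals 0.21. The members' median ran from -0.0489 to 0.0409 when single rats were left out. The Socs2 and Cish correlation ran from -0.72 (without isoflurane rat 3) to 0.40 on leaving out 1 rat. The number of members whose groups did not overlap ran from 1 to 3: of 9 members it was 3 without isoflurane rat 1 (Socs2, Prlr and Egfr; 28.8% of all tested genes), 2 without isoflurane rat 2 (Socs2 and Bcl6; 23.7%), 2 without CO2/O2 rat 1 (Socs2 and Ghr; 22.4%) and 2 without CO2/O2 rat 3 (Socs2 and Prlr; 27.5%), against 14.2% of all tested genes with all 6 rats.

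The groups share replicate numbers. Same-numbered rats deviated together with r 0.114, 0.0213 and 0.06, and differently numbered rats with r from -0.0937 to 0.0372. For each isoflurane rat the same-numbered r was the highest, but all were small. The numbers were therefore not taken to pair the rats, and a pairing was not tested. With the replicate block, 0 members were called, 1 had groups that did not overlap and the median stayed at -0.0051; Socs2 was -1.08 ± 0.34 (adjusted p 0.575 in limma) and Prlr -2.64 ± 0.42 (adjusted p 0.458 in limma). Every member was well above background on all 6 arrays, and 3 rats per group limit the precision.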

Other observations

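Across the 6 rats, the genes whose course was most like the mean of Socs2 and Cish were sought among 1650 genes above background on all arrays with an SD of at least 0.3 log2 units. The highest Pearson r belonged to Ypel2 (0.986), Bach2 (0.986), Prkab1 (0.976), Ptgfr (0.965) and Tmcc3 (0.959), of which Bach2 encodes a transcriptional repressor, Prkab1 a subunit of the energy sensor AMPK and Ptgfr the prostaglandin F receptor. The lowest belonged to Gyg1 (-0.997), Itfg2 (-0.988), Rgs11 (-0.984), Capn6 (-0.980) and Itpkb (-0.978), Gyg1 encoding glycogenin, the primer of glycogen synthesis. Isoflurane rat 3 set most of this ranking, since the mean profile stood at -0.89 in it and between 0.01 and 0.35 in the other rats. Gyg1 gave -0.64, -1.29 and 0.91 in isoflurane livers, against -0.78, -0.88 and -1.23 in CO2/O2 livers. Ptgfr gave -1.62, -1.63 and -2.70 in isoflurane livers, against -1.64, -1.56 and -1.51 in CO2/O2 livers. The 10 genes were picked from 1650 by these same values over 6 rats, so their correlations are a description.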
